A study of Mus musculus with 41 samples.

Results

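Promoter sites bound by the histone methyltransferases MLL3 and MLL4 in epidermal stem cells (EpdSCs) and absent from the peak lists after SOX9 induction were examined. They were the MLL3/4 CUT&RUN (CNR) peaks of day 0 (D0) that shared not even 1 bp with any MLL3/4 peak of week 1 (W1) or week 2 (W2) and that had at least 1 base within 1 kb of an annotated transcript start (GENCODE vM21, mm10). The D0 list held 37072 peaks, of which 10388 lay at promoters, and 3882 of these (37.4%, 95% Wilson interval 36.4 to 38.3) were lost in this sense. The members were chosen by the D0, W1 and W2 MLL3/4 peaks themselves, so that number is a description and carries no test. Of all D0 MLL3/4 peaks, 37.8% were lost at both times, and at distal sites, those farther than 1 kb from a start, 38.0% (37.4 to 38.6) were. For comparison, 3759 D0 promoter sites were kept, that is overlapped by a peak at W1 and at W2, and 2747 were overlapped at only 1 of the times.

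The mice were CD1 males of genotype K14rtTA; TRE-myc-Sox9, in which the keratin 14 promoter drives the DOX-dependent activator and MYC-tagged SOX9 is made in basal epidermis once DOX is given. DOX was injected at P21 (D0) and continued in the feed, and cells negative for CD31, CD45, CD117, CD140a and CD34 but high in CD49f and Ly6A were sorted from back skin at P21 (D0), P28 (W1), P35 (W2), P63 (W6) or from grafts at W12. MLL3/4 was mapped in skin at D0, W1 and W2, and SOX9 at all 5 times. Cultured keratinocytes extracted from back skin of CD1 males supplied MLL3/4 and MYC-tag CNR. They carried K14rtTA and, by lentivirus and puromycin selection, full-length SOX9 (WT-SOX9, genotype TRE-myc-Sox9), Sox9noTA, which lacks the transactivation domain, or Sox9noHMG, which lacks the DNA-binding HMG domain. WT-SOX9 cells were used without DOX and with 1 µg/ml DOX, the other two with DOX. All 16 groups used had 2 samples, pooled by the authors into 1 peak list, so that no spread between replicates is known and no difference between groups was tested. All intervals are 95% Wilson intervals for shares, or Newcombe intervals for differences, and cover counting error over sites only. Both MLL3/4 samples of WT-SOX9 cells with DOX are described as replicate 2, so what stands behind that list is unsure. The methods describe peaks called on RPKM-normalised tracks, yet in the pooled MLL3/4 lists every highest signal is a whole number, from 5 up in skin and from 3 or 4 up in cultured cells. These values were therefore read as unscaled coverage, which the sources used here do not state, so that their scale and depth are unknown. The W1 and W2 lists were shorter than the D0 list (31539 and 29281 peaks). A loss of MLL3/4 and a shallower library at W1 and W2 cannot be told apart from these lists.

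MLL3 and MLL4, encoded by *Kmt2c* and *Kmt2d*, are the catalytic subunits of large complexes that place a single methyl group on lysine 4 of histone H3, a mark typical of enhancers and of the flanks of active promoters. Many promoters of widely expressed genes lie in CpG islands, stretches that have escaped the usual depletion of CpG, whereas promoters of tissue-restricted genes are more often CpG-poor. SOX9 is the pioneer factor of the hair follicle stem cell and is normally off in the interfollicular EpdSC. As a check of the sorted cells, 8 of 11 EpdSC markers had at least 1 D0 promoter site, among them *Krt5*, *Krt14*, *Trp63*, *Itga6* and *Col17a1*, and none of these 8 genes had a lost promoter site. Of 6 hair follicle stem cell markers only *Sox9* itself had a D0 promoter MLL3/4 site, which was not lost. None of the 6 immune, 6 fibroblast or 4 endothelial markers had a D0 promoter site, and of 6 melanocyte markers *Dct* had one that was not lost and *Mitf* had one that was.

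Sequences are printed for the 101 bp around the D0 signal maximum of 8 lost sites (mm10, RefSeq GRCm38.p6, plus strand, 5′ to 3′), with any of 13 searched words in capitals on whichever strand it was read. The *Gm10782* and *Hilpda* sites had the highest and the next highest D0 total signal of all 3882, and the *Zfp865* and *Sae1* sites were the highest of those also on all 4 MLL3/4 lists of cultured cells. The *Zhx2*, *Gm45785*, *Gm12348* and *Paxx* sites were the highest in total signal that hold GGGCGG (or CCGCCC on the other strand), the SP/KLF word and the word most frequent at lost sites. Capitals elsewhere mark ATTGG, the reverse complement of the NFY word CCAAT, at *Hilpda* and *Gm45785*, the NRF1 word GCATGCGC and the ETS word CCGGAAG at *Zfp865*, and the AP1 word TGACTCA at *Paxx*. The *Gm10782* and *Sae1* windows hold none of the 13.
Gm10782 (chr13:56362472-56362572): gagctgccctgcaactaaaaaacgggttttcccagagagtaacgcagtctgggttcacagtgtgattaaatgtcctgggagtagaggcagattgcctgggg
Hilpda (chr6:29271111-29271211): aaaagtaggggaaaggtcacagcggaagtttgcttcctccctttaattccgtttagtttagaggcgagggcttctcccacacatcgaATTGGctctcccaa
Zfp865 (chr7:5020376-5020476): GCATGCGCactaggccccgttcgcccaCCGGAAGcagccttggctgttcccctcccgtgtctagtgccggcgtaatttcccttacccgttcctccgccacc
Sae1 (chr7:16368741-16368841): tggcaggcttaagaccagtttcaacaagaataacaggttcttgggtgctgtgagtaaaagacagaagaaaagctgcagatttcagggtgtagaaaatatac
Zhx2 (chr15:57693914-57694014): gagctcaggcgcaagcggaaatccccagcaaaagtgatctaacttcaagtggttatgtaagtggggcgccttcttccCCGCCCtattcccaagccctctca
Gm45785 (chr7:140856380-140856480): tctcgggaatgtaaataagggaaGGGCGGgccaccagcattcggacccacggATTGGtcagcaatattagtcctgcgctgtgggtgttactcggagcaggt
Gm12348 (chr11:100402407-100402507): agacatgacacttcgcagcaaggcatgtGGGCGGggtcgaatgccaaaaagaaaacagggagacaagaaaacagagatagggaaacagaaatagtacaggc
Paxx (chr2:25460986-25461086): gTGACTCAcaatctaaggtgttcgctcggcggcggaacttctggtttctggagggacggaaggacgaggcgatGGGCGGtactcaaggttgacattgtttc

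Lost promoter sites were weak at D0. Their highest signal had a median of 6 (range 5 to 25), against 10 (range 5 to 5686) at kept promoter sites, and 5 was the lowest value in the D0 list. In total signal, the coverage summed over the bases of the peak, the median was 811.5 at lost and 1869 at kept sites, and the median width was 284 and 439 bp. A highest signal of 5 or 6 was found at 63.7% (62.2 to 65.2) of lost and 17.1% (16.0 to 18.4) of kept promoter sites. When all D0 promoter sites were split into quartiles of total signal, 1733 of 2597 sites were lost in the lowest quartile, 1210 and 758 in the next ones, and 181 (6.97%, 6.05 to 8.01) in the highest. These values belong to the rule and are given as a description. Because the lost and kept sites differed so much in signal, the overlaps with other lists, the CpG content and 6 of the 13 sequence words were also compared within quartiles. The gene lists, the positions, the other words and the comparison with distal sites were not, and the part of D0 signal in them was not tested. Within a quartile, sites still differed in D0 signal. The highest quartile spanned total signals of 1785 to 1015667, where lost sites reached at most 4425 and kept sites 1015667. The number of lost sites was 2548 with D0, W1 and W2 lists of equal length and 868 among the stronger 50% of D0 peaks.

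**Figure D1:**
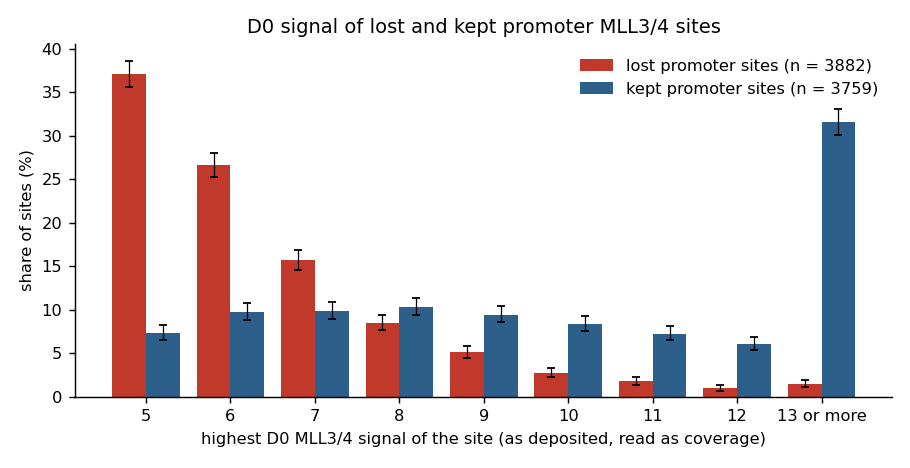
Share of lost and kept promoter sites (y axis, %) by the highest D0 MLL3/4 signal of the site as deposited, read as coverage (x axis); bars are shares of all sites in the class and error bars 95% Wilson intervals. Lost sites crowd at 5 and 6, where 63.7% of them lie against 17.1% of kept sites.

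The strongest lost sites lay at genes of several kinds. The highest in total signal, on chromosome 13 (56362303 to 56362921), covered the start of the predicted gene *Gm10782* with a D0 highest signal of 16, and in cultured cells only the list without DOX had a peak there (highest coverage 10). The *Hilpda* site, near the gene for a hypoxia-inducible lipid droplet protein, reached 19 at D0, lay 958 bp from the start on chromosome 6 (29270826 to 29271530), and was on the cultured MLL3/4 lists without DOX (20), with Sox9noTA (14) and with Sox9noHMG (13) but not with WT-SOX9. The *Bmp4* site covered the start of the gene for bone morphogenetic protein 4 on chromosome 14 (46390543 to 46391087) with a highest signal of 17, was on none of the 5 SOX9 lists from skin or the 4 pooled MLL3/4 lists from cultured cells, and had its nearest later MLL3/4 peak 48492 bp away. Other sites among the 12 of highest total signal lay at *Rhbdl2*, a rhomboid protease gene (13), *Kif5c*, a kinesin heavy chain gene (15), *Dtnbp1*, encoding dysbindin (17), *Chst12*, a chondroitin sulfotransferase gene (16), and *Grap2*, an adaptor gene of T cells (25). None of the 12 had a SOX9 peak at D0, W1, W2 or W12, and only the site at *Gm20705*, within introns of *Foxp1* and *Gm20696*, had one at W6 (1931 RPKM).

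By the rule, all lost sites had a base within 1 kb of a start. A start lay inside 1863 of them (48.0%, 46.4 to 49.6), compared with 54.2% (52.6 to 55.8) of kept promoter sites, and the signal maximum lay within 100 bp of the nearest start at 38.7% (37.2 to 40.3) of lost and 31.2% (29.8 to 32.7) of kept sites. Lost sites were narrower (median 284 against 439 bp), and the part of width in the share covering a start was not tested. The median maximum was 35 bp upstream of the start at lost and 83 bp upstream at kept sites (offsets -35 and -83). The nearest start belonged to a protein-coding gene at 83.9% (82.7 to 85.0) of lost and 78.5% (77.2 to 79.8) of kept sites, and to a long intergenic non-coding RNA at 4.71% and 7.95%. The members just inside the distance limit lay at *Parp8* (999 bp from a start), *Mast3* (997 bp) and *Rell1* (997 bp), with highest signals of 7, 5 and 8. The lost peaks just outside it lay near *Hsf2* (1001 bp), *Ext2* (1002 bp) and *Gm24158* (1002 bp), with highest signals of 5, 6 and 6. At some lost sites a later peak lay directly beside: the W2 peak next to the *F930017D23Rik* site touched it, and those next to the *Fmc1* and *Eml2* sites ended 1 bp and 2 bp away. Whether such a peak is the D0 peak with another boundary was not tested. A W1 or W2 peak lay within 1 kb of 1061 lost sites (27.3%, 26.0 to 28.8), and the median distance was 6355 bp. Another D0 peak that was not lost lay within 1 kb of 791 lost sites (20.4%, 19.1 to 21.7).

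At the level of genes, 4199 of the 9455 genes with a D0 promoter site had at least 1 lost site. At 3008 genes, 31.8% of those 9455, every D0 promoter site was lost, and at 1191 (12.6%) some were. Against that background, aminoacyl-tRNA synthetase genes, whose products charge tRNAs, had every site lost at 13 of 24, mitochondrial ribosomal protein genes at 18 of 39, splicing factor genes at 16 of 38, and cytosolic ribosomal protein genes at 22 of 56. Genes of the SWI/SNF chromatin remodeller had every site lost at 6 of 13. At the other end, 0 of 13 genes of epidermal structure and 0 of 10 genes of desmosomes and hemidesmosomes had every site lost (2 of each list had some lost, *Tgm3* and *Dmkn*, and *Pkp3* and *Dst*), replication-dependent histone genes had 7 of 47, and genes of cilium transport had 2 of 17. The lists are small, were chosen with earlier results of these data known, and were not tested. A gene with more D0 promoter sites must lose more of them to be counted, and the number of sites per gene was not compared between lists. Where only the stronger 50% of D0 peaks was used, 815 of 5197 genes had every site lost. A gene with every site lost can still have a later MLL3/4 peak beside a site. With sites counted as lost only where no W1 or W2 peak lay within 1 kb, 2649 of 9455 genes had every site lost.

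**Figure D2:**
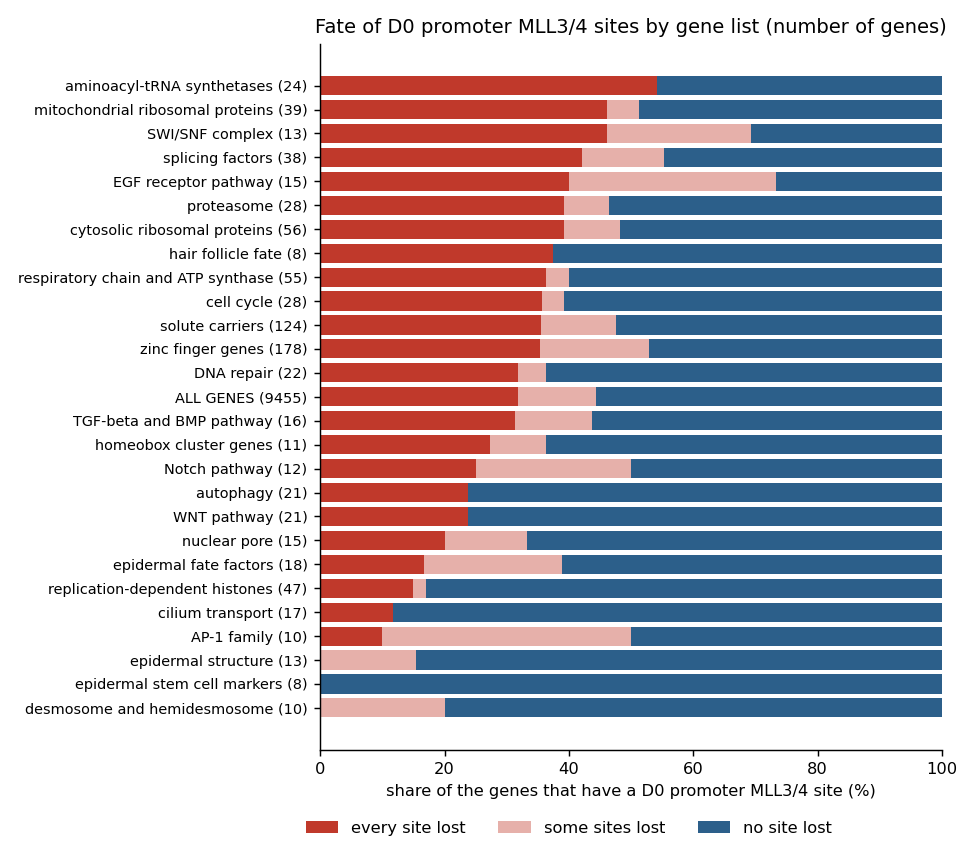
Genes with at least 1 D0 promoter MLL3/4 site, by gene list (number of such genes in parentheses); bar segments give the share of genes (x axis, %) with every site lost, some lost or none lost. Of all 9455 genes, 31.8% had every site lost, against 54.2% of aminoacyl-tRNA synthetase genes and none of the genes of epidermal structure, of desmosomes and of the EpdSC markers.

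Among the translation and respiration genes, most of the named sites covered a start. The *Mrpl34* site, at a gene of the mitochondrial ribosome that shares its promoter region with *Abhd8*, had a D0 highest signal of 6 and SOX9 peaks of 1844, 1910 and 1889 RPKM at W1, W2 and W6, with cultured MLL3/4 peaks without DOX (12) and with Sox9noHMG (10). The sites at *Wars2* (11), *Mars2* (7) and *Tars2* (6), encoding mitochondrial aminoacyl-tRNA synthetases, and that at *Mrpl24* (7) were on none of the SOX9 or cultured MLL3/4 lists. Of the respiratory chain, the *Cox5b* site (7) was on the list without DOX (7) and the *Cox6b1* site (5) on the Sox9noHMG list (10), whereas the *Ndufs6* site (8) was on none.

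Among regulators, the SWI/SNF genes with a lost site included *Arid1a* (D0 highest signal 6), encoding a DNA-binding subunit, *Smarcb1* (5), a core subunit, and *Pbrm1* (6), each with its single site lost, and *Smarca2* (6), an ATPase gene with 4 sites, not all of them lost. These lost sites were on none of the SOX9 or cultured MLL3/4 lists. Of 18 epidermal fate factor genes, 3 had every site lost, namely *Tfap2b*, *Ovol2* and *Barx2*, and 4 had some lost, including *Tfap2a* and *Gata3*. The *Tfap2a* site, 808 bp from a start of the gene for transcription factor AP-2 alpha, was the 20th by total signal with a highest signal of 10. The *Gata3* site (7) had SOX9 peaks at W1 (2996 RPKM), W2 (4660) and W6 (2896), with cultured MLL3/4 peaks without DOX (11) and with Sox9noHMG (6), and a W1 MLL3/4 peak lay 50 bp away. The *Ovol2* site (8), at the start of a zinc finger repressor gene, was on all 4 cultured MLL3/4 lists (19, 8, 14 and 12 without DOX, with WT-SOX9, Sox9noTA and Sox9noHMG). Of all 9455 genes with a D0 promoter site, 31.8% had every site lost, and no list was tested against that share. In the signalling lists, every site was lost at 6 of 15 genes of the EGF receptor pathway, 5 of 16 of the TGF-beta and BMP pathway, 5 of 21 of the WNT pathway, 3 of 12 of the Notch pathway and 2 of 3 of the Hedgehog pathway. Members there were the sites at *Tgfa* (6), an EGF receptor ligand gene, *Smad6* (11), an inhibitory SMAD gene with SOX9 peaks at W1, W2 and W6 (1902, 3209 and 2267 RPKM), *Ctnnb1* (6), encoding beta-catenin, *Dll1* (6), a Notch ligand gene, *Adam10* (9), a Notch-cleaving protease gene with a SOX9 peak at W2 (2827 RPKM), and *Ptch1* (6), the Hedgehog receptor gene. The W1 and W2 MLL3/4 peaks nearest to the *Ctnnb1* site lay 414 and 303 bp away. Of 28 cell cycle genes 10 had every site lost. The *Mcm3* site, at the start of a replicative helicase gene, had a highest signal of 13, was on all 4 cultured MLL3/4 lists (24, 9, 10 and 17) and had SOX9 peaks at W1 (4668 RPKM), W2 (6723), W6 (3610) and W12 (3263). The *Cdkn1a* site (17), 563 bp from a start of the gene for a cyclin-dependent kinase inhibitor and annotated as intronic, was on the lists without DOX (15), with Sox9noTA (10) and with Sox9noHMG (18) and had no SOX9 peak.

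Whether the lost sites came to carry SOX9 was read from the SOX9 lists, which the rule did not use. SOX9 peaks overlapped 7 of the 3882 lost sites at D0 (0.180%), 296 at W1 (7.62%, 6.83 to 8.50), 501 at W2 (12.9%, 11.89 to 14), 421 at W6 (10.8%, 9.91 to 11.9) and 35 at W12 (0.902%, 0.649 to 1.25). Over all D0 MLL3/4 peaks the shares were 2.21%, 32%, 34.3%, 32.2% and 11.1%. Kept promoter sites carried SOX9 peaks more often at each of the 5 times: 4.58%, 62.6%, 71.5%, 63.7% and 20.6%. Promoter sites overlapped at only 1 of W1 and W2 lay between, with 26.7% at W1 and 39.4% at W2. The difference, lost minus kept, was -55.0 percentage points at W1 (-56.75 to -53.24) and -58.6 at W2 (-60.35 to -56.78). Lost distal sites had SOX9 peaks less often than lost promoter sites at W1 (2.86%), W2 (2.82%) and W6 (5.995%), with differences of 4.77 (3.90 to 5.70), 10.1 (9.01 to 11.2) and 4.85 points (3.80 to 5.96), and more often at W12 (1.73%, difference -0.824 points, -1.20 to -0.402). Lost promoter sites moved by 10 kb to either side met W1 and W2 SOX9 peaks in 1.26% and 1.16% of cases. At W1 the share was 12.6% among the stronger 50% of D0 peaks and 1.11% against the stronger 50% of SOX9 peaks.

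In all, 794 lost sites (20.5%, 19.2 to 21.8) had a SOX9 peak at W1, W2, W6 or W12, 475 of them at only 1 of these times and 16 at all 4. Among kept promoter sites 17.9% (16.7 to 19.2) had none at these times. The SOX9 maximum lay inside the lost site in 217 of 296 cases at W1 (73.3%, 68.0 to 78.0), 449 of 501 at W2 (89.6%, 86.6 to 92.0), 328 of 421 at W6 (77.9%, 73.7 to 81.6) and 28 of 35 at W12. Its median distance from the D0 MLL3/4 maximum was 37, 41, 41 and 30 bp. They were weak peaks, at the median percentile 22.9 of total signal in the W2 list and 15.8 in the W1 list. A SOX word at the D0 maximum was held by 17 (5.74%), 19 (3.79%), 21 (4.99%) and 2 (5.71%) of the lost sites with a SOX9 peak at W1, W2, W6 and W12, beside 3.71% of all lost sites. The W1 SOX9 peaks of highest total signal on lost sites lay at *Pex16*, a peroxisome biogenesis gene (4552 RPKM, D0 MLL3/4 highest signal 5), *Dst*, the gene for dystonin (4207, 6), and *Serpinb10*, a serine protease inhibitor gene annotated as a polymorphic pseudogene (2996, 5). At W12 those of highest total signal lay at *Pgm2*, a phosphopentomutase gene (2849 RPKM), *Ppp2r1a*, the scaffold subunit gene of protein phosphatase 2A (2666), and *Ankrd50* (2620). The *Pgm2* site was also on all 4 cultured MLL3/4 lists (26, 6, 14 and 24). The nearest W1 and W2 MLL3/4 peaks lay 343 and 247 bp from the *Pex16* site and 250 and 77 bp from the *Dst* site. They lay 350 and 302 bp from the *Serpinb10* site, 298 and 241 bp from *Ppp2r1a* and 76 and 55 bp from *Ankrd50*. From the *Pgm2* site they were 26299 and 26591 bp away. The *Ift57* site, at a gene of ciliary transport, had SOX9 peaks of 2478, 4278, 3232 and 2068 RPKM at W1, W2, W6 and W12.

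**Figure D3:**
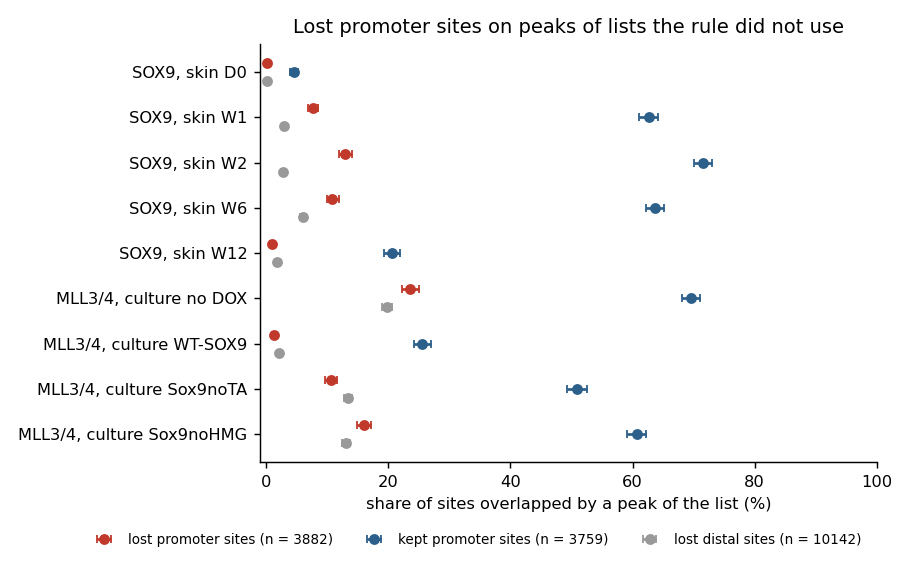
Share of lost promoter, kept promoter and lost distal D0 MLL3/4 sites (x axis, %) overlapped by a peak of each SOX9 list from skin and each MLL3/4 list from cultured cells; points are shares over sites and bars 95% Wilson intervals. Lost promoter sites lie below kept promoter sites in all 9 lists, for example 12.9% against 71.5% for SOX9 at W2.

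The cultured cells gave MLL3/4 lists independent of the rule. Without DOX, MLL3/4 peaks overlapped 916 lost promoter sites (23.6%, 22.29 to 24.96), against 69.5% (68.0 to 71.0) of kept promoter sites, 19.8% (19.1 to 20.6) of lost distal sites and 40.4% of all D0 peaks, a difference between lost and kept promoter sites of -45.9 points (-47.9 to -43.9). The list of replicate 1 alone, longer at 40061 peaks, gave 25.3% of lost and 71.7% of kept promoter sites. With WT-SOX9 and DOX, 50 lost promoter sites had an MLL3/4 peak (1.29%, 0.978 to 1.69), with Sox9noTA 412 (10.6%, 9.68 to 11.6) and with Sox9noHMG 620 (16.0%, 14.9 to 17.2). The same lists covered 11.7%, 27.7% and 30.6% of all D0 peaks and 25.6%, 50.9% and 60.7% of kept promoter sites. On none of the 4 cultured lists were 2774 lost promoter sites (71.5%, 70.0 to 72.9) and 932 kept ones (24.8%, 23.4 to 26.2).

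Of the 916 lost promoter sites on the list without DOX, 45 (4.91%, 3.69 to 6.51) were also on the WT-SOX9 list, 338 (36.9%, 33.8 to 40.1) on the Sox9noTA list and 484 (52.8%, 49.6 to 56.0) on the Sox9noHMG list. Of the 2614 kept promoter sites on the list without DOX, 35.5%, 70.4% and 81.9% were, and of the 2011 lost distal sites 9.30%, 55.3% and 56.4%. These lists were unequal, with 10543 peaks for WT-SOX9, 25948 for Sox9noTA and 23301 for Sox9noHMG. Cut to 10543 peaks each by total signal, the Sox9noTA and Sox9noHMG lists held 11.03% (9.16 to 13.2) and 18.5% (16.1 to 21.1) of these sites, nearer to the WT-SOX9 share but above it. The shares of the kept promoter sites moved likewise, to 39.8% and 54.3%, and those of the lost distal sites to 28.2% and 29.6%, so that lost promoter sites stayed lowest of the 3 kinds on each cut list. A total of 226 lost promoter sites (5.82%) were on the list without DOX and on both mutant lists but not on the WT-SOX9 list, and 33 (0.850%) were on all 4. Both patterns were more frequent at kept promoter sites, with 892 (23.7%) and 831 (22.1%). Beside *Zfp865*, a zinc finger gene (highest coverage 31, 9, 9 and 11 without DOX, with WT-SOX9, Sox9noTA and Sox9noHMG), the strongest of the 33 at D0 were *Sae1*, a SUMO-activating enzyme gene (79, 16, 43 and 46), and *Emd*, encoding emerin (27, 11, 15 and 34). On the list without DOX alone were 348 lost promoter sites (8.96%, 8.11 to 9.90) and 332 kept ones (8.83%, 7.97 to 9.78), much the same share. Of the 348, *Gm10782*, *Kif5c* and *Tmem65* were the strongest at D0. Since the scale and depth of these lists are unknown, the part of list length in these shares was not tested beyond the cut.

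Within each quartile of D0 total signal, lost promoter sites lay below kept ones in the lists of SOX9 at W2 and of cultured MLL3/4. For SOX9 at W2 the shares of lost promoter sites, from the lowest to the highest quartile of D0 total signal, were 7.85%, 12.9%, 21.4% and 26.0%, with lost minus kept differences of -41.6, -47.9, -48.5 and -52.3 points, and all 4 intervals stayed below 0. For MLL3/4 in cells without DOX the shares were 15.8%, 24.4%, 35.2% and 44.8%, with differences of -28.1, -27.6, -30.3 and -35.0 points. For WT-SOX9 they were 0.750%, 1.24%, 2.38% and 2.21%, with differences of -10.2, -11.0, -11.9 and -34.5 points. The shares of lost sites on W2 SOX9 peaks and on the list without DOX were higher in each quartile of higher D0 signal. Sites of a quartile still differed in D0 signal, and its part in these differences was not tested.

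**Figure D4:**
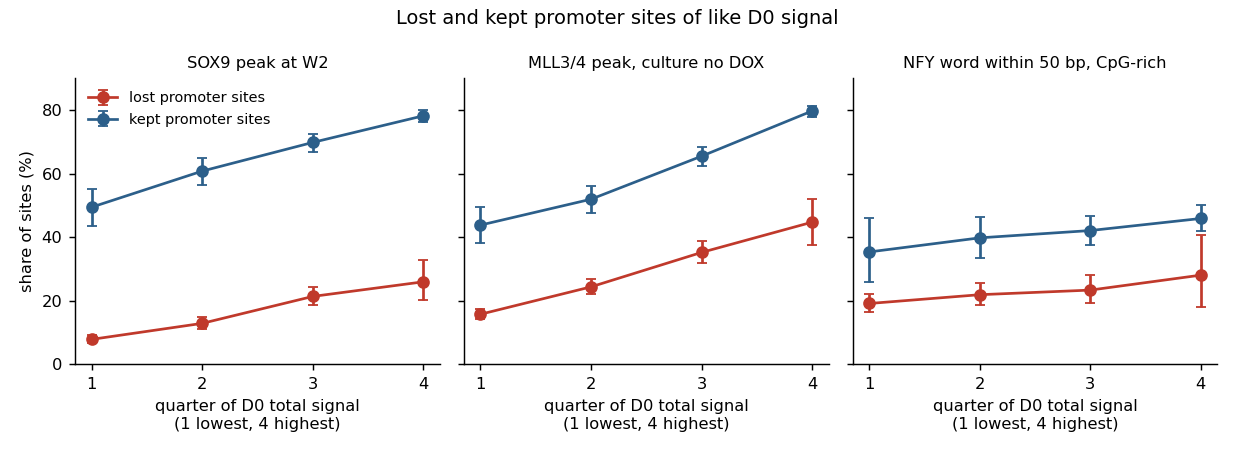
Share of lost and kept promoter sites (y axis, %) with a SOX9 peak at W2 (left), with an MLL3/4 peak in cultured cells without DOX (middle) and, for CpG-rich sites only, with the NFY word within 50 bp of the maximum (right), by quartile of D0 total MLL3/4 signal (x axis); bars are 95% Wilson intervals. Lost sites lie below kept sites in every quartile of each panel, at W2 by 41.6 points in the lowest and 52.3 points in the highest.

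MYC-tag CNR of cultured cells, made to map transgenic SOX9, overlapped few lost sites, with DOX and without it. Peaks overlapped 83 lost promoter sites without DOX (2.14%, 1.73 to 2.64), 55 with WT-SOX9 (1.42%, 1.09 to 1.84), 61 with Sox9noTA (1.57%, 1.22 to 2.01) and 127 with Sox9noHMG (3.27%, 2.76 to 3.88). Over all D0 MLL3/4 peaks these lists covered 3.44%, 3.61%, 9.86% and 4.28%. The share with WT-SOX9 was not above that of the uninduced cells. Without DOX the transgene is not induced, and the paper reports that SOX9 without its HMG domain failed to bind DNA. Peaks of those lists are therefore not read as SOX9 binding. Kept promoter sites had MYC-tag peaks in 13.1%, 10.99%, 13.8% and 14.9% of cases.

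In sequence, lost promoter sites as a whole were richer in CpG than kept ones, and within quartiles of D0 signal this was beyond counting error only in the lowest. They were less rich than the promoter sites overlapped at only 1 of W1 and W2, so CpG content did not follow the number of times at which a site was overlapped. The observed over expected CpG ratio within 250 bp to each side of the maximum had a median of 0.588 (quartiles 0.304 and 0.798) at lost, 0.484 (0.259 and 0.742) at kept promoter sites, 0.65 (0.357 and 0.824) at promoter sites overlapped at 1 time and 0.208 at lost distal sites, and the median GC content was 55.3%, 52.5%, 56.1% and 45.1%. A CpG ratio above 0.6 with a GC content above 50% was met by 1742 lost (44.9%, 43.3 to 46.4) and 1329 kept promoter sites (35.4%, 33.8 to 36.9), and by 51.3% (49.4 to 53.2) of those overlapped at 1 time; this split was chosen after the medians were seen. By quartile of D0 signal, also compared after seeing the data, lost sites exceeded kept sites in this share by 15.3 points (9.33 to 20.8) in the lowest quartile. In the next ones the difference was 4.26 (-0.905 to 9.34), 0.338 (-4.36 to 5.05) and 2.39 points (-4.25 to 9.75), each interval including 0. The median CpG ratio was 0.588 at lost and 0.425 at kept sites in the lowest quartile, 0.6 and 0.565 in the second, 0.590 and 0.602 in the third, and 0.371 and 0.418 in the highest. The CpG-rich lost sites had SOX9 peaks at W2 in 20.7% (18.8 to 22.6) and the CpG-poor in 6.59% (5.61 to 7.72) of cases, and the W2 difference held its sign in each quartile of D0 signal. The shares were 10.7% and 5.09% at W1 and 12.8% and 9.25% at W6. At W12 the order turned, with 0.804% (0.479 to 1.35) and 0.981% (0.643 to 1.496), which overlap. In the highest quartile 31 of 57 CpG-rich and 16 of 124 CpG-poor lost sites had a W2 SOX9 peak. D0 highest signal had the same median, 6, in both kinds. MYC-tag peaks without DOX likewise covered 61 of the CpG-rich and 22 of the CpG-poor lost sites, so that the list of the uninduced control moved with CpG content too, and the part of CpG content in the SOX9 shares at W1, W2 and W6 was not tested.

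Short words were counted on both strands within 50 bp of each signal maximum, beside windows 1 kb to each side and windows on all 132629 annotated start positions. The SP/KLF word GGGCGG was in 24.6% (23.3 to 26.0) of lost and 19.5% (18.3 to 20.8) of kept promoter windows, against 6.04% at 1 kb from lost sites and 15.7% of all starts. The ETS word CCGGAAG was in 5.41% (4.74 to 6.17) of lost and 3.03% of kept windows (4.12% of starts), and the NRF1 word GCATGCGC in 1.49% and 0.638% (0.901% of starts). At promoter sites overlapped at only 1 of W1 and W2 the SP/KLF word was in 27.6% of windows, more than at lost sites (lost lower by 2.93 points, interval of the difference -5.09 to -0.789). The ETS, NRF1 and AP1 words were there in 5.53%, 1.35% and 5.86%, each with an interval of the difference from lost sites that included 0. Factors of the SP/KLF, ETS and NRF1 families bind promoters of widely expressed genes. The AP1 word TGACTCA, bound by FOS and JUN family dimers, was in 5.87% (5.18 to 6.66) of lost and 9.87% (8.96 to 10.9) of kept promoter windows, a difference of -3.996 points (-5.21 to -2.79), and in 12.1% of lost distal windows and 1.31% of starts. A SOX word, that is ACAAAGG, its form ACAATGG, the form ACAAAGC or the form ACAATGC, was in 3.71% (3.16 to 4.35) of lost windows, below the 5.78% at 1 kb to each side, the 5.43% of kept windows and the 5.25% of starts. The GATA word AGATAA (4.35% and 4.28%), the E-box CACGTG (3.27% and 3.01%), the CRE TGACGTCA (1.11% and 0.931%) and the CTCF motif (0.618% and 0.426%) differed between lost and kept windows by less than counting error, as did the RUNX word AACCACA (1.24% and 1.57%) and the ZBTB33-type word CTCGCGAG (0.361% and 0.133%). Within quartiles of D0 signal most of these gaps could not be told from 0. The AP1 difference was -4.35 points (-8.51 to -1.17) in the lowest quartile and -1.68, -2.24 and -1.14 points in the others, with intervals that included 0, and it was -0.288 points (-1.37 to 0.713) at CpG-rich and -4.96 points (-6.80 to -3.11) at CpG-poor sites. The SP/KLF difference was 5.93 points (0.693 to 10.4) in the lowest quartile and 4.399, -0.198 and 5.15 points in the others, with intervals that included 0. The SOX difference was -5.14 and -2.37 points in the lower quartiles, with intervals below 0, and -0.430 and -2.70 points in the higher ones, with intervals that included 0. For NRF1 only the interval of the highest quartile was above 0 (1.55 points, 0.127 to 4.90). The YY1 word AAGATGGC was in 0.953% and 0.532%, against 1.92% of starts. The words were counted independently of each other, and a match is a description, not evidence of binding.

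**Figure D5:**
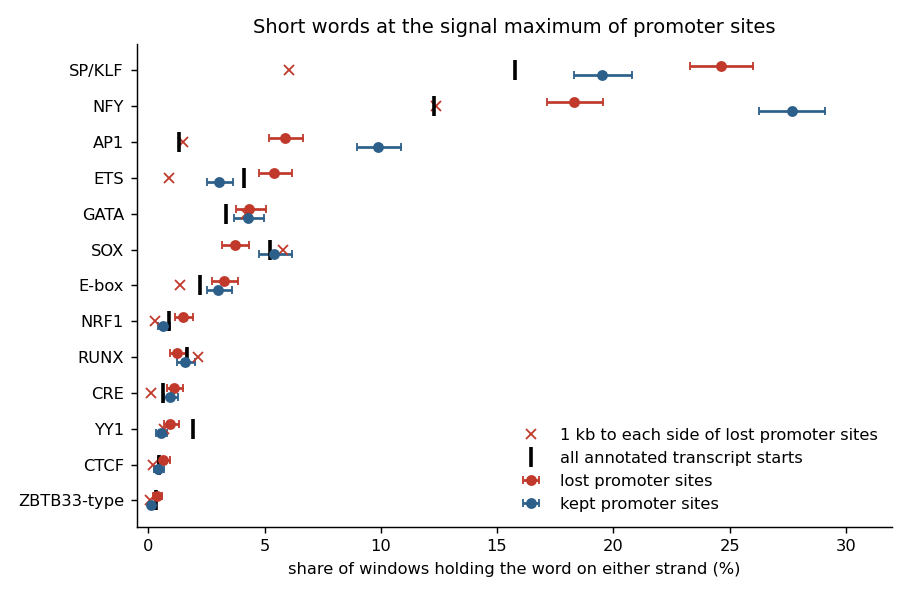
Share of 101 bp windows (x axis, %) holding each of 13 words at the D0 signal maximum of lost and kept promoter sites (points with 95% Wilson intervals), 1 kb to each side of lost sites (crosses) and on all annotated starts (bars). Lost sites exceed kept sites for the SP/KLF word (24.6% against 19.5%) and fall short for the NFY word (18.3% against 27.7%) and the AP1 word (5.87% against 9.87%).

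The widest gap was in CCAAT, the NFY word, a classical promoter element usually found a short way upstream of the start. It was in 18.3% (17.1 to 19.6) of lost and 27.7% (26.3 to 29.1) of kept promoter windows, a difference of -9.35 points (-11.2 to -7.47), against 12.4% at 1 kb from lost sites and 12.3% of starts. Promoter sites overlapped at 1 time held it in 25.4%, and lost sites differed from them by -7.06 points (-9.10 to -5.04). By quartile of D0 signal the difference over all sites was -3.18 points in the lowest, with an interval that included 0, and -8.61, -12.6 and -7.94 points in the others, with intervals below 0. The gap was wider at CpG-rich sites, where 369 of 1742 lost (21.2%, 19.3 to 23.2) and 571 of 1329 kept windows (43.0%, 40.3 to 45.6) held it, a difference of -21.8 points (-25.04 to -18.48). At CpG-poor sites the shares were 16.0% and 19.3%, a difference of -3.32 points (-5.52 to -1.10), but by quartile of D0 signal it was 1.43, -2.10, -7.40 and -4.33 points, and only the interval of the third quartile did not include 0. Among CpG-rich sites the difference was -16.2, -17.9, -18.7 and -17.8 points from the lowest to the highest quartile of D0 signal, each interval below 0. Because the maxima of kept sites lay farther upstream, windows with a like position were compared: with the maximum 50 to 150 bp upstream of the start, 28.8% of 469 lost and 54.4% of 471 kept CpG-rich windows held the word (-25.6 points, -31.5 to -19.4), and with the maximum within 50 bp of the start 19.9% of 710 and 39.8% of 389 did (-20.0 points, -25.7 to -14.3). The SP/KLF word, in contrast, was in 42.0% of lost and 39.9% of kept CpG-rich windows, with an interval of the difference that included 0 (2.14 points, -1.37 to 5.63), and in 10.5% and 8.40% of CpG-poor windows (2.07 points, 0.377 to 3.79), whereas the difference over all sites, CpG-poor ones included, was 5.10 points (3.24 to 6.95). The ETS word was in 9.41% and 6.62% of CpG-rich windows (2.79 points, 0.845 to 4.69) and in 2.15% and 1.07% of CpG-poor windows (1.08 points, 0.353 to 1.86), but within quartiles of D0 signal the difference at CpG-rich sites was 3.36, -2.17, 2.10 and -1.19 points, every interval including 0. Over all sites the ETS difference was 3.82 points in the lowest quartile, with an interval above 0, and 0.171, 0.352 and -0.367 points in the others, with intervals that included 0.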

How the data were processed

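CNR peak lists from sorted EpdSCs and cultured keratinocytes were used as deposited. Per the methods, the authors used Skewer for trimming, Bowtie2 2.2.9 for alignment (mm10), Picard against duplicates and SAMtools 1.3.1 to keep fragments of at most 120 bp and to combine the 2 replicates, made coverage with deepTools 3.1.2 and called peaks with SEACR in stringent mode at 0.01. The deposited SOX9 and MYC-tag lists give the maximum signal in RPKM, kept by the authors above 1800, and the deposited MLL3/4 pooled lists give whole-number signal, read here as unscaled coverage although the methods describe RPKM tracks. The deposited total signal, a score that sums over the bases of a peak, was ranked only within a list. Depth is not given in the files. The JUN, ARID1a and BRG1 samples (9 of 41) were not analysed here.

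Only the numbered chromosomes, X and Y entered. Tables were handled in pandas 2.3.3 under Python 3.11.15, with numpy 2.4.6 for arrays, scipy 1.17.1 for intervals and matplotlib 3.10.9 for plots. Overlap meant at least 1 shared bp, and 0 peaks ended beyond a chromosome of GRCm38.p6. A gene was assigned every D0 peak within 1 kb of any of its starts. The members, gene lists and words were chosen with earlier results of these data known. Named sites were the 12 of highest D0 total signal, up to 4 per gene list, the 3 under the SOX9 peaks of highest total signal at W1 and at W12, the 3 nearest to each limit, and the 3 highest on the no-DOX list alone or on all 4 cultured lists; part of them are described, and some are not reported here. The CpG-rich split, the comparisons of CpG content and words within quartiles of D0 signal and the comparison at like distances from the start were added after the values were seen. Scripts were tested on simulated data. Alternatives are described in the closing section.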

Additional observations from a re-analysis of the deposited data

How the results depend on the processing

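No paired analysis was possible because each group has 1 list of pooled replicates. Lost sites numbered 2548 with D0, W1 and W2 lists of equal length and 868 among the stronger 50% of D0 peaks, where 815 genes had every site lost; the other 8 alternatives for the sites and 9 for the genes stayed within 1.5 times. On cultured MLL3/4 peaks without DOX the share of lost sites was 28.9% with lists of equal length, 37.1% among the stronger 50%, and 25.3% on the list of replicate 1, and on WT-SOX9 peaks it was 2.19% among the stronger 50%. On W1 SOX9 peaks it was 6.38% with no later peak within 1 kb, 6.65% after merging peaks within 500 bp, 9.58% with lists of equal length, 12.6% among the stronger 50%, 8.57% and 6.45% with promoters of 500 bp and 2.5 kb, and 1.11% against the stronger 50% of SOX9 peaks. The median CpG ratio was 0.611 with no later peak within 1 kb, 0.547 among the stronger 50%, 0.670 and 0.427 with promoters of 500 bp and 2.5 kb, 0.608 where the maximum had to lie within 1 kb and 0.666 at protein-coding starts. With the DOX lists cut to equal length, a choice made after seeing the data, Sox9noTA and Sox9noHMG held 11.03% and 18.5% of the lost sites on no-DOX peaks, beside 39.8% and 54.3% of kept sites. In all alternatives the shares of lost sites stayed below, and the CpG ratio above, those of kept promoter sites. With 100 bp to each side, 6 of 13 words were less frequent at lost than at kept sites in place of 4, and 11 of 13 kept their direction. The causes were not tested, and the unknown depth of the MLL3/4 libraries limits every call of a loss.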

Other observations

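The X chromosome, of which these male cells carry a single copy, held few D0 promoter MLL3/4 sites, and more of them were lost than elsewhere. Of 148 D0 promoter sites on X, 81 were lost (54.7%, 95% Wilson interval 46.7 to 62.5), against 3801 of 10240 on the autosomes (37.1%, 36.2 to 38.1). Per autosome the share ran from 32.8% on chromosome 19 to 43.3% on chromosome 5. The share on X was above that of the autosomes in each quartile of D0 total signal (74.1% and 66.6% in the lowest, 22.2% and 6.86% in the highest), although only the highest quartile, with 18 sites on X, had intervals that did not overlap. At distal sites 42.3% (37.5 to 47.3) of 390 X sites and 37.9% of autosomal sites were lost. The median of the highest D0 signal was 6 on X and 7 on the autosomes for promoter sites, and its part in the difference was not tested. One of the strongest lost sites on all 4 cultured MLL3/4 lists, *Emd*, lies on X (74254413 to 74254845).

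Beside the 31.8% of all genes with every D0 promoter site lost, 63 of 178 zinc finger genes and 44 of 124 solute carrier genes with such a site had every one lost, as did 11 of 28 proteasome, 20 of 55 respiratory chain, 7 of 22 DNA repair and 5 of 21 autophagy genes. Of the hair follicle fate genes 3 of 8 had every site lost, namely *Msx2*, *Nfatc1* and *Vdr*, and a *Vdr* site, in an intron of the vitamin D receptor gene, had SOX9 peaks at W2 (2445 RPKM) and W6 (2141). Of 10 AP-1 family genes with a D0 promoter site, *Mafg* had its only site lost, and 4 had some lost, *Junb*, *Fosl2* and *Mafk* among them. Of 1134 olfactory receptor genes 2 had a D0 promoter site, and that of *Olfr71* was lost.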
